A study of Mus musculus with 6 samples.

Results

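The 9 genes of early B cell development, Rag1, Rag2, Dntt, Vpreb1, Vpreb3, Igll1, Cd79a, Cd79b and Pax5, were followed across sorted control and CXCL12-deficient marrow stromal cells. They were chosen by name as genes of B cell precursors, with earlier results of these data known. All 9 were found among the 17128 genes of the count table. Gene expression had been measured by RNA sequencing of cells sorted from the femur of mice at postnatal day 21, after collagenase digestion of bone and marrow without the distal growth plate. Both groups carried a GFP allele and a floxed (fl) allele of Cxcl12, so GFP marked cells in which the Cxcl12 locus was active, and both carried the Cre-dependent reporter R26R(tdTomato/+). The control group comprised 3 libraries of GFP+ cells with the genotype Cxcl12(GFP/fl); R26R(tdTomato/+). The CXCL12-deficient group comprised 3 libraries of GFP+tdTomato+ cells from mice that carried Col2a1-cre as well. Col2a1-cre recombines floxed alleles in cells that express or descend from cells that expressed Col2a1, a cartilage collagen gene also active in skeletal precursors, so the deletion was limited to that lineage. Transgene, sorting gate and state of the floxed allele changed together, and their parts in any difference cannot be told apart. About 20000 cells went into each library. The labels do not say that libraries came from separate animals, so p-values measure only the spread between these libraries.

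B cells are made in the bone marrow, where precursors depend on CXCL12 and interleukin 7 from stromal cells. In pro-B cells the RAG1 and RAG2 proteins cut the immunoglobulin heavy chain locus, and DNA repair proteins rejoin it. Terminal transferase, encoded by Dntt, adds bases at the joints. A finished heavy chain is displayed with a surrogate light chain, made of VPREB1 and the Igll1 product (lambda 5), and with the signalling chains CD79A and CD79B. This complex, the pre-B cell receptor, marks the step from pro-B to pre-B cell, and the transcription factor PAX5 holds the cells in the B lineage.

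Total counts per library ran from 20133299 to 28009257, and 13926 genes passed the filter on low counts, all 9 early B cell genes among them. Levels are given as CPM, read counts scaled to a common library total with the TMM factors of edgeR. Cxcl12 itself stood at 3876, 3673 and 3694 CPM in the 3 control libraries and at 1423, 1280 and 1163 CPM in the CXCL12-deficient libraries, and it fell by 1.54 on the log2 scale (SE 0.17; edgeR adjusted p = 0.0053). Stromal markers were high in every library, with Lepr, the leptin receptor gene that marks these cells, at 630 to 688 CPM in controls and 810 to 1260 CPM in CXCL12-deficient libraries. Ptprc, which encodes the leukocyte antigen CD45 and should be absent from stromal cells, was at 59.8, 75.4 and 107 CPM in controls and at 12.7, 16.9 and 10.2 CPM in CXCL12-deficient libraries. RNA of blood cells was thus measured in all 6 libraries beside that of the labelled stromal cells. In bulk RNA, fewer cells of a type and less RNA per cell cannot be told apart.

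Promoter sequences are shown for Rag1 of recombination, Igll1 of the surrogate light chain, the related Vpreb3 and the signalling chain Cd79a. Each of these was picked as an example and holds a match to a motif named below. The windows of Rag2, Dntt and Pax5 held no match and are not printed. Dntt, Vpreb1 and Cd79b were low in the same libraries as the printed genes. Each printed sequence is the stretch upstream of the start given by RefSeq on GRCm38.p6, written 5′ to 3′ on the strand of the gene. Capitals mark matches on either strand to the E-box CAGNTG, bound by E proteins such as E2A, to CCCNNGGG, a core of the motif of EBF1, and to the octamer ATTTGCAT. No match of one motif overlapped a match of another in these stretches. The Rag1 promoter is at chr2:101649533-101649782 (minus strand), that of Igll1 at chr16:16863986-16864235 (minus), that of Vpreb3 at chr10:75948050-75948299 (plus) and that of Cd79a at chr7:24897247-24897380 (plus), which ends where annotated exons begin.
Rag1: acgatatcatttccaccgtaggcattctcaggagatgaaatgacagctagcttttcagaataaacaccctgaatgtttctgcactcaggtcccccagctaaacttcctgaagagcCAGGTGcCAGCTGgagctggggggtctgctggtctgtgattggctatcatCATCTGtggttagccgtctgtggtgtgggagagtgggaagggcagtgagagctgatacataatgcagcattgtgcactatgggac
Igll1: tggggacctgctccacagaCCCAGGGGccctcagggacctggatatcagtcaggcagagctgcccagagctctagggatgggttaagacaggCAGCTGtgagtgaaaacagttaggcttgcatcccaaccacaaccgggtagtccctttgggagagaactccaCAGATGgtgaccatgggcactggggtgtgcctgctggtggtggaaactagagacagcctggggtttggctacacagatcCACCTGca
Vpreb3: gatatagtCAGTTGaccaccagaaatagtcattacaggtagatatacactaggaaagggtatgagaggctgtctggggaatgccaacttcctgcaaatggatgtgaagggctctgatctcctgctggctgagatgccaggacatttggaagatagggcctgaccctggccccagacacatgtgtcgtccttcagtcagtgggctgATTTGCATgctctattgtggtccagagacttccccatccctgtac
Cd79a: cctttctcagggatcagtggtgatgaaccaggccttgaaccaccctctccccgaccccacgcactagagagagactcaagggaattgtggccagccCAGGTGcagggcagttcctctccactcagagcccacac
A window of 250 bases was found for 8 of the 9 genes, all but Cd79b. The E-box was present in 5 of these 8 windows, those of Rag1, Vpreb1, Vpreb3, Igll1 and Cd79a, and in 44.8% of all 32851 windows of that length. Rag1 and Igll1 held 3 E-box matches each. The EBF1 core was present in 1 of 8, that of Igll1, against 11.8% of all windows. The octamer, a binding sequence of POU factors in immunoglobulin promoters, was present in 1 of 8, that of Vpreb3, against 1.6% of all windows, where it lay 45 to 38 bases upstream of the start. These matches describe the letters only, and no binding was measured.

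All 9 early B cell genes were lower in the CXCL12-deficient libraries by their fitted values, and every control library was above every CXCL12-deficient library for each of them. Their log2 fold changes lay between -3.01 and -1.63, with a median of -1.88 beside 0.03 over all tested genes. With Benjamini-Hochberg adjustment over all 13926 genes and a threshold of 0.05, 2 of the 9 passed as lower, Rag1 and Cd79a, and 0 as higher. Over all tested genes 3.94% passed as lower and 0.639% as higher. An unadjusted p under 0.05 with a lower level was reached by 9 of 9, beside 11.3% of all tested genes. Groups separated in this direction for 13.9% of all tested genes, and 47.4% had a log2 fold change below 0. The plot of CPM by library shows this separation together with the wide spread inside each group.

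**Figure D1:**
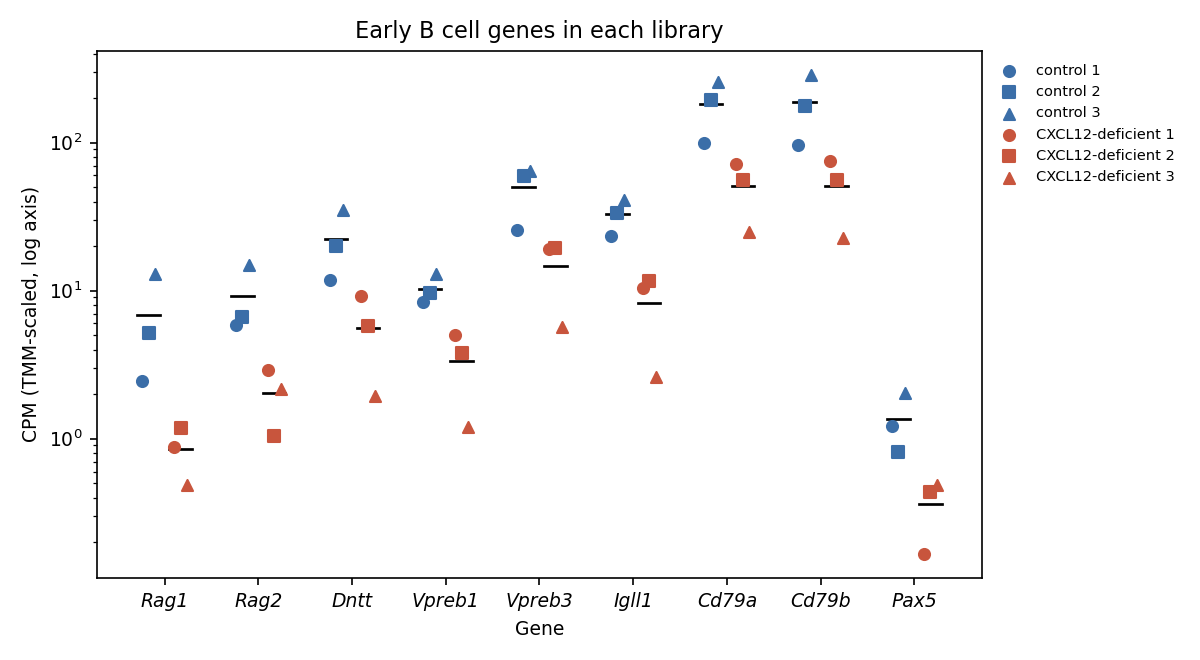
Level of each early B cell gene in every library, in CPM on a log axis, with control libraries and CXCL12-deficient libraries as separate points and the group means as lines. For all 9 genes the lowest control library is above the highest CXCL12-deficient library, and control library 3 is the highest of the controls.

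The recombination genes were low in abundance, and Rag1 had the largest fold change of the 9 genes. Rag1, which encodes the DNA-cutting subunit of the recombinase, was measured at 2.46, 5.203 and 12.9 CPM in control libraries 1, 2 and 3 and at 0.875, 1.18 and 0.488 CPM in the CXCL12-deficient libraries in the same order. The highest CXCL12-deficient library was 2.09 times below the lowest control library. Rag1 fell by 3.01 on the log2 scale, or 8.03-fold (SE 0.68, adjusted p = 0.0417, edgeR). These levels rested on 69, 128 and 273 reads in controls against 21, 27 and 11 reads. Rag2, the partner subunit, was at 5.85, 6.67 and 14.98 CPM in controls and at 2.92, 1.05 and 2.18 CPM in CXCL12-deficient libraries. The groups were apart by a factor of 2.01 at their nearest libraries, and the log2 fold change of -2.16 ± 0.53 had an adjusted p of 0.0535 (edgeR), just past the threshold.

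Dntt, whose product adds bases at the joints without a template, was the most abundant of the 3 recombination genes per length. Its levels were 11.9, 19.96 and 35.3 CPM in controls and 9.16, 5.76 and 1.95 CPM in CXCL12-deficient libraries. Control library 1 and CXCL12-deficient library 1 were near each other, 1.29 times apart, while control library 3 and CXCL12-deficient library 3 were the highest and the lowest of the 6. Its log2 fold change was -1.99 ± 0.56 (adjusted p = 0.0894, edgeR), which did not pass. Rag1 and Rag2 lie next to each other on chromosome 2 in opposite orientation, Rag1 at chr2:101638282-101649501 and Rag2 at chr2:101624718-101632529 (GRCm38, GENCODE M21). B230118H07Rik shares 80 exon bases with Rag1 on the same strand and 208 with Rag2 on the opposite strand, and the sources used here do not give the strand setting of the counting. That gene was at 15.8 to 23.3 CPM in controls and at 16.1 to 35.0 CPM in CXCL12-deficient libraries, so its groups overlapped.

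For the surrogate light chain genes Vpreb1 and Igll1 and the related Vpreb3, the control mean was 3.09 to 3.96 times the CXCL12-deficient level by the fit, and none of the 3 passed the adjusted threshold. Igll1, which encodes lambda 5, was measured at 23.5, 33.5 and 41.1 CPM in controls and at 10.5, 11.6 and 2.62 CPM in CXCL12-deficient libraries. CXCL12-deficient library 3 was well below the other CXCL12-deficient libraries, and the groups were 2.02 times apart at their nearest. The log2 fold change was -1.99 ± 0.48 (adjusted p = 0.0535, edgeR). Vpreb1, the variable-like part of the surrogate light chain, was at 8.32, 9.67 and 12.9 CPM in controls, the tightest of the 9 genes in relative spread, and at 4.998, 3.79 and 1.199 CPM in CXCL12-deficient libraries. Its log2 fold change was the smallest of the set, -1.63 ± 0.50 (adjusted p = 0.114, edgeR).

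Vpreb3, related to the VPREB genes and known to bind immunoglobulin chains inside the cell, was at 25.8, 59.9 and 64.0 CPM in controls and at 19.0, 19.4 and 5.68 CPM in CXCL12-deficient libraries. Control library 1 was closer to the CXCL12-deficient libraries than to the other controls, at 1.33 times the highest of them. The log2 fold change was -1.76 ± 0.48 (adjusted p = 0.0792, edgeR). Vpreb1 and Igll1 are neighbours on chromosome 16, at chr16:16868403-16870843 and chr16:16860671-16863985, both on the minus strand. Vpreb1 has a near-identical copy, Vpreb2, with 96.5% identical bases over 766 aligned transcript bases, and 32.5% of the stretches of 50 bases in Vpreb1 were found unchanged in Vpreb2. The sources used here do not say how reads shared by both were counted, and the Vpreb1 level is uncertain to that extent. Vpreb2 itself was at 1.07 to 1.56 CPM in controls and at 0.262 to 0.375 CPM in CXCL12-deficient libraries (log2 fold change -2.03, adjusted p = 0.163, edgeR). Vpreb1 also shares 108 exon bases with Top3b on the opposite strand, a topoisomerase gene whose log2 fold change was -0.33.

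The signalling chains were the most abundant of the 9 genes. Cd79a, encoding the alpha chain that carries the receptor signal, was measured at 98.8, 194 and 255 CPM in controls and at 71.5, 55.9 and 24.9 CPM in CXCL12-deficient libraries. The lowest control library was 1.38 times the highest CXCL12-deficient library, although the group means differed by more. Cd79a fell by 1.85 on the log2 scale, or 3.59-fold (SE 0.42, adjusted p = 0.0423, edgeR). Cd79b, encoding the beta chain, was at 96.4, 177 and 288 CPM in controls and at 75.1, 56.0 and 22.8 CPM in CXCL12-deficient libraries. Levels of the pair, whose products join in 1 receptor, were high and low in the same libraries. The Cd79b log2 fold change was -1.86 ± 0.47 (adjusted p = 0.0608, edgeR); the pair had like sizes on either side of the threshold.

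Pax5, the factor of B lineage commitment, had the fewest reads of the 9 genes. It was measured at 1.21, 0.813 and 2.03 CPM in controls and at 0.167, 0.436 and 0.488 CPM in CXCL12-deficient libraries. These values rested on 34, 20 and 43 reads against 4, 10 and 11 reads. The log2 fold change of -1.88 ± 0.80 had the widest error of the set and an adjusted p of 0.241 (edgeR). Antisense transcripts annotated over Pax5 share 125 and 636 exon bases with it, and without the strand setting their reads cannot be told apart from those of Pax5.

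Per kilobase of exon, which allows genes to be compared, the order of control levels was led by Cd79b with 131 ± 67.1 CPM per kb (SD, n = 3) and Cd79a with 125 ± 54.0. Those 2 did not differ beyond their spread. Vpreb3 followed with 58.1 ± 24.4, then Igll1 with 15.1 ± 4.06, Dntt with 9.76 ± 5.19 and Vpreb1 with 8.60 ± 1.98 CPM per kb. The control libraries of Dntt overlapped those of Igll1 and of Vpreb1, while every control value of Igll1 was above every control value of Vpreb1. Rag2 stood at 2.68 ± 1.47, Rag1 at 1.04 ± 0.82 and Pax5 at 0.15 ± 0.07 CPM per kb. In CXCL12-deficient libraries the levels ran from 35.9 ± 18.5 CPM per kb for Cd79b to 0.04 ± 0.02 for Pax5, with 17.1 ± 9.09 for Vpreb3 and 3.81 ± 2.27 for Igll1. Dntt and Vpreb1 changed places there, at 2.45 ± 1.57 and 2.78 ± 1.62 CPM per kb, within their spread.

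Together the 9 genes held 7682, 12454 and 15363 reads in the control libraries and 4663, 3557 and 1403 in the CXCL12-deficient libraries. This was 0.0274%, 0.0514% and 0.0763% of all counts in controls and 0.0185%, 0.0154% and 0.00614% in CXCL12-deficient libraries. Cd79a and Cd79b made up between 71.2% and 76.6% of these reads in every library. Control library 3, the shallowest of the 6, was the highest control for 9 of 9 genes, and control library 1, the deepest, was the lowest control for 8 of 9, all but Pax5. CXCL12-deficient library 3 was the lowest of its group for 7 of 9 genes, all but Rag2 and Pax5. Most of the genes thus varied together inside the groups as well as between them. Among CXCL12-deficient libraries Rag2 was lowest in library 2, and Pax5 was lowest in library 1 and highest in library 3. The highest CXCL12-deficient library was library 1 for 5 genes, library 2 for 3 and library 3 for 1.

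The number of genes past the threshold rested on single libraries. Without control library 1, 4 of the 9 genes passed as lower, Rag1, Vpreb3, Cd79a and Cd79b, beside 3.74% of all tested genes. Leaving out control library 2 or control library 3 left 0 of 9 by edgeR, beside 1.08% and 0.521% of all tested genes passing as lower. Leaving out CXCL12-deficient library 1 or 2 also left 0 of 9 by edgeR, beside 3.2% and 2.89% passing as lower. In each of these refits 8 of 9 had an unadjusted p under 0.05. The share of all genes at that unadjusted level was not computed for the refits. Igll1 was the 1 gene that passed without CXCL12-deficient library 3, beside 2.87%. DESeq2 called 8 of the 9 lower, all but Pax5, and 7.25% of all the genes it tested. limma-voom called Igll1 and Cd79a, 2 of 9, beside 3.88% of all genes.

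The Rag1 log2 fold change ran from -3.43 to -2.19, that of Cd79a from -2.17 to -1.52 and that of Igll1 from -2.32 to -1.56 when 1 library at a time was left out. Dntt ran from -2.53 to -1.52 and Vpreb1 from -2.04 to -1.23. The plot of log2 fold changes shows each gene with its error and the range over the 6 refits.

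**Figure D2:**
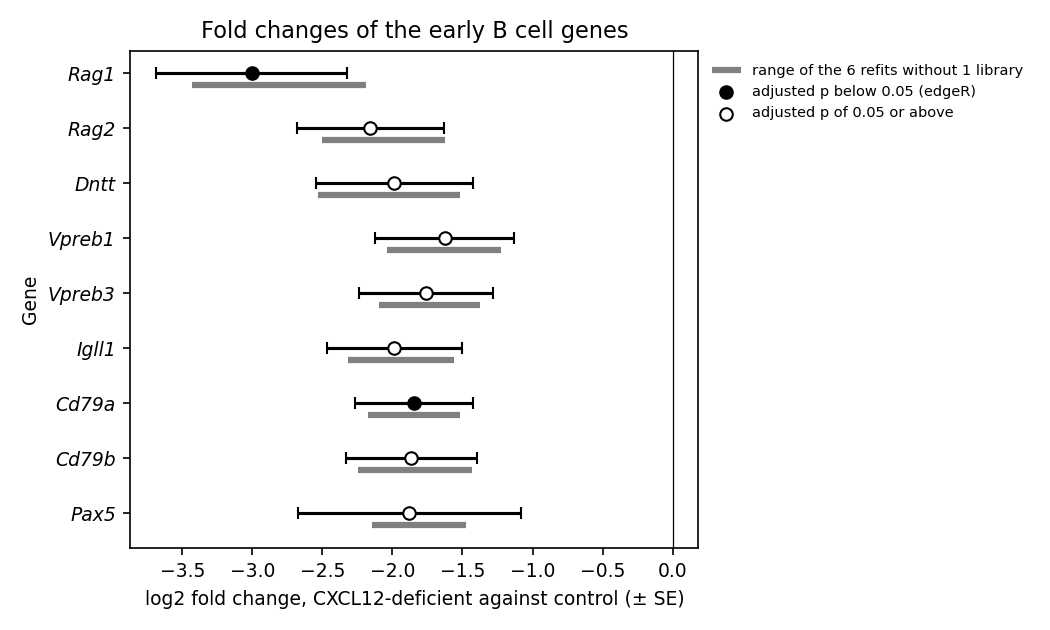
Log2 fold change of CXCL12-deficient over control libraries (edgeR) for each early B cell gene, with black bars for the SE, grey bars for the range when 1 library is left out, and filled points for an adjusted p below 0.05. All 9 points lie between -3.01 and -1.63, Rag1 is the lowest, and Pax5 has the widest error.

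Ratios between the genes were compared to ask whether they differed by different factors. The log2 ratio of each gene to Cd79a was taken in every library, with 0.5 CPM added to both, and compared by exact two-sided permutation, in which 3 against 3 gives p = 0.1 at the smallest. For Cd79b over Cd79a the control mean was 0.00 ± 0.16 and the CXCL12-deficient mean -0.02 ± 0.10 (SD over 3 libraries, exact permutation p = 1.0). Vpreb3 over Cd79a was -1.86 ± 0.16 and -1.81 ± 0.27, and Dntt over Cd79a -3.03 ± 0.21 and -3.15 ± 0.24. Igll1 over Cd79a differed by -0.26 (exact permutation p = 0.4) and Vpreb1 over Cd79a by 0.22 (exact permutation p = 0.4). None of these 5 differences was larger than the wider of the SDs of its groups.

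For Rag1 over Cd79a the control mean was -4.80 ± 0.48 and the CXCL12-deficient mean -5.15 ± 0.52, a difference of -0.35 (exact permutation p = 0.5, n = 3 each). With 0.1 CPM added in place of 0.5 this difference was -0.77, and with 2 CPM, above every CXCL12-deficient Rag1 level, it was 0.36. Those of Rag2 and Dntt over Cd79a were -0.22 and -0.21 with 0.1 CPM, and 0.42 and 0.14 with 2 CPM. The ratios of these low genes thus depended on the added value and cannot decide whether their factors differed from that of Cd79a. Rag2 over Cd79a varied most of the recombination genes among CXCL12-deficient libraries, at -4.40, -5.19 and -3.25. Pax5 over Cd79a was -6.57 ± 0.68 and -5.78 ± 1.04. The mean of Cd79a over Ptprc was 1.11 ± 0.34 in the control group and 1.80 ± 0.60 in the other group, a difference of 0.69 (exact permutation p = 0.2, n = 3 each). Over the 9 ratios no adjusted p was below 0.9, and the groups overlapped for each of them.

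**Figure D3:**
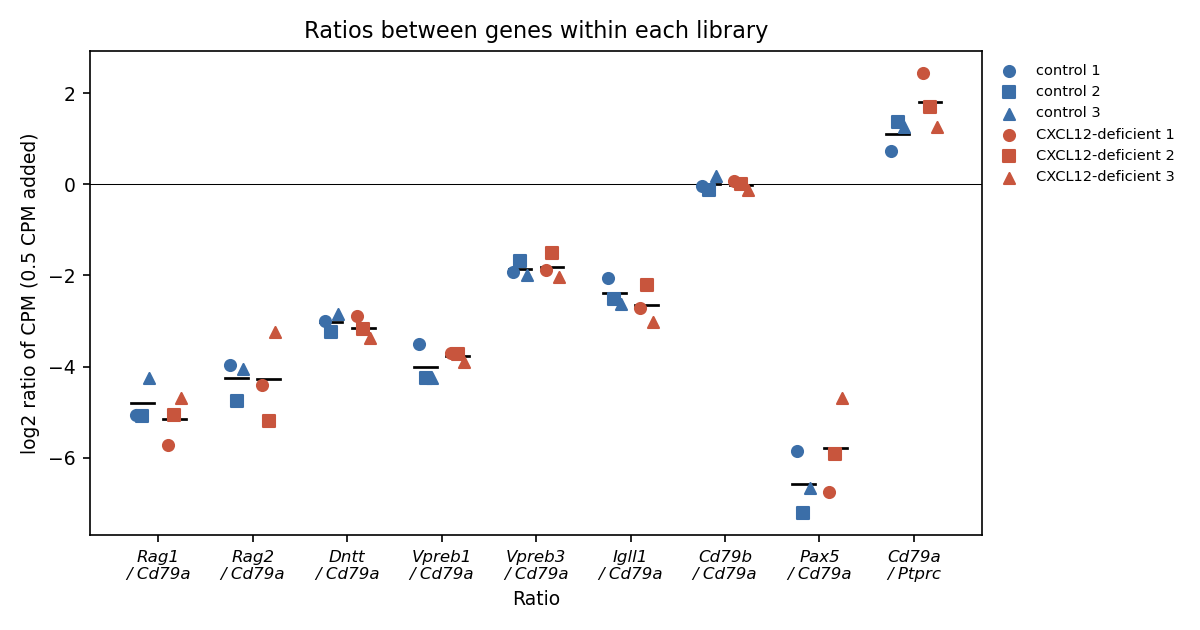
Log2 ratio of 8 early B cell genes to Cd79a, and of Cd79a to Ptprc, in each library, with 0.5 CPM added to both levels control and CXCL12-deficient libraries as separate points and group means as lines. The points of the groups overlap for all 9 ratios, from near 0 for Cd79b to -6.57 on average in controls for Pax5.

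Genes that work with this set were examined by role, from lists of the pathway. Among 12 recombination partners, which repair and join the cut DNA, 0 passed in either direction and the median log2 fold change was -0.37. With edgeR 6 of the 12 had an unadjusted p under 0.05, 5 of them lower, beside 11.3% of all tested genes with such a lower level. DESeq2 called 2 lower and limma-voom 0, beside 7.25% and 3.88% of all the genes they tested. Hmgb2 and Hmgb1, DNA-bending proteins that assist the recombinase and are made in many cells, had log2 fold changes of -0.95 and -0.41. Most cell types use these genes for DNA repair, beyond the recombination that RAG1 and RAG2 start.

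Of 16 B lineage transcription factors, 4 passed as lower and 0 as higher, with a median of -1.47. Myb, required in blood precursors, fell 4.37-fold, Spib 4.21-fold, Ikzf1, which encodes Ikaros, 3.29-fold and Irf8 3.07-fold (adjusted p = 0.0201, 0.0403, 0.0309 and 0.0115, edgeR). All 4 are also active in other blood lineages. The count was 1 without control library 2, 0 without control library 3 and 1 without CXCL12-deficient library 1. It was 6 without control library 1 and 3 without CXCL12-deficient library 2 or 3. Ebf1, a B lineage factor also made by marrow stromal cells, was at 292, 261 and 271 CPM in controls and at 296, 335 and 429 CPM in CXCL12-deficient libraries (log2 fold change 0.36, adjusted p = 0.292, edgeR).

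Genes of pre-B cell and B cell receptor signalling had the largest share of calls among the B lineage lists. In the same libraries 13 of 15 neutrophil genes passed as lower too. Which blood cells the RNA of these signalling genes came from was not tested. Of 15 tested, 9 passed as lower and 0 as higher, with a median of -2.04. The largest were Syk, the kinase that binds phosphorylated CD79 chains, at 5.59-fold lower, Plcg2, a phospholipase, at 5.49-fold, Blk, a B lineage Src kinase, at 5.32-fold and the phosphatase gene Ptpn6 at 4.54-fold (adjusted p = 0.00796, 0.0116, 0.0285 and 0.00319, edgeR). The count was 4 without control library 2 and 3 without control library 3, when 1.08% and 0.521% of all tested genes passed as lower. It was 12 without control library 1, and 7, 6 and 8 without CXCL12-deficient libraries 1, 2 and 3.

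Of 10 genes of the interleukin 7 receptor and related cytokine receptors, 2 passed as lower, with a median of -0.19. Il7r, the receptor chain on B cell precursors, fell 6.10-fold and Il2rg, the shared chain, 2.86-fold (adjusted p = 0.017 and 0.0147, edgeR). Without control library 2, and without control library 3, the count was 0. It was 3 without CXCL12-deficient library 2, and 2 without control library 1 or CXCL12-deficient library 1 or 3. Il7, the stromal ligand, was at 137, 165 and 123 CPM in controls and at 329, 162 and 307 CPM in CXCL12-deficient libraries (log2 fold change 0.91, adjusted p = 0.093, edgeR), with overlapping groups. Of 16 other genes of pro-B and pre-B cells, 2 passed as lower, Cnp at 2.85-fold and Akap12 at 2.02-fold, both known in other cell types too, and the median was -1.49. The count was 4 without control library 1, 1 without CXCL12-deficient library 2 and 0 without any of the other 4 libraries in turn. The plot of the gene lists sets their medians beside that of the 9 genes.

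**Figure D4:**
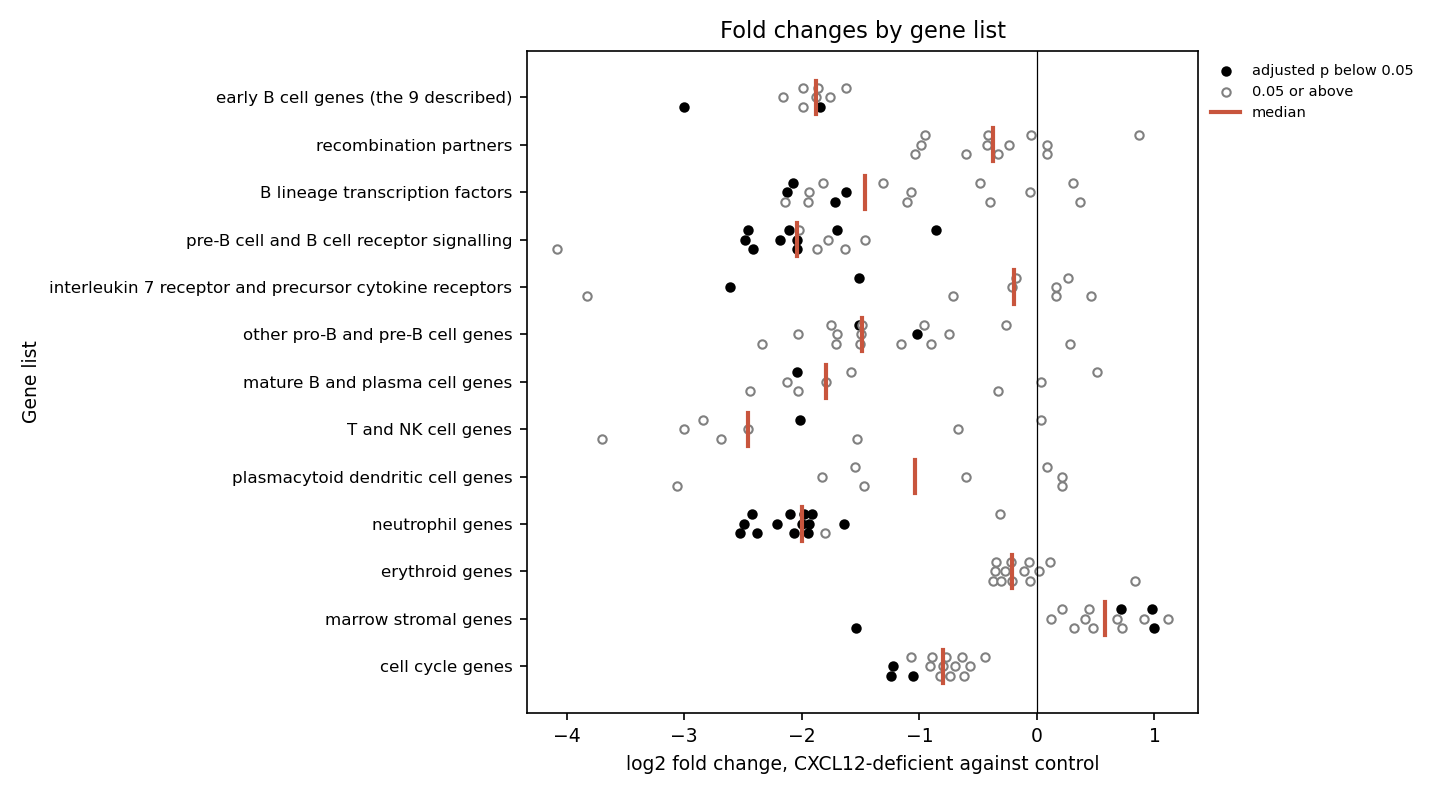
Log2 fold change (edgeR) of each tested gene of the early B cell set and of 12 other lists, 1 row per list, with called genes marked and the median of each list as a line. The early B cell genes centre at -1.88, the receptor signalling genes at -2.04 and the neutrophil genes at -2.00, while marrow stromal genes centre at 0.58.

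Markers of other cells that a marrow sort can hold were counted in the same way. Of 15 neutrophil genes, 13 passed as lower, with a median of -2.00 and a summed level of 15968 to 21871 CPM in controls against 3006 to 7508 CPM in CXCL12-deficient libraries. The collagenase gene Mmp8 fell 5.76-fold, the granule peroxidase gene Mpo 5.64-fold, the cytokine receptor gene Csf3r 5.37-fold and Retnlg 5.21-fold (adjusted p = 0.0188, 0.0121, 0.0284 and 0.0106, edgeR). No gene of the list was at 0 in all libraries, and the neutrophil count was 7 without CXCL12-deficient library 2, 3 without control library 2 and 1 without control library 3. It was 11 without control library 1 and 10 without CXCL12-deficient library 1 or 3. Ptprc, the general leukocyte gene, fell by 2.61 on the log2 scale (SE 0.28, adjusted p = 0.004, edgeR) and was called in 6 of 6 refits that left out a library, while each early B cell gene was called in at most 1 of the 6. The part of leukocyte RNA as a whole in the lower early B cell levels was not tested beyond the Cd79a to Ptprc ratio given above.

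Of 9 tested T and NK cell genes, 1 passed as lower, Nkg7, and the median was -2.46, with a summed level of 51.0 to 83.2 CPM in controls and 12.96 to 29.3 CPM in CXCL12-deficient libraries. The call was lost without any of 5 libraries in turn, and leaving out CXCL12-deficient library 2 gave 2. The CD3 chain gene Cd3e, a T cell marker, was at 0.607, 0.528 and 3.07 CPM in controls, and at 0, 0 and 0.311 CPM in CXCL12-deficient libraries. These values rested on 17, 13 and 65 reads against 0, 0 and 7 reads. The groups were also apart for Cd3d and Cd3g but overlapped for Cd4, Cd8a and Lck. Cd4 had a log2 fold change of 0.04. Of 8 plasmacytoid dendritic cell genes, 0 passed in either direction by edgeR, and 0 were called lower by DESeq2 or limma-voom. An unadjusted p under 0.05 with a lower level was found for 1 of them, beside 11.3% of all tested genes. The median was -1.04, with 5 of 8 below 0. The most abundant, Tcf4 and Bst2, had log2 fold changes of 0.09 and 0.21 with overlapping groups, and Siglech, chosen as a defining marker, was at 7.60 to 13.1 CPM in controls and 0 to 2.79 CPM in CXCL12-deficient libraries. Of 13 erythroid genes, 0 passed by edgeR, DESeq2 or limma-voom and 0 had an unadjusted p under 0.05 in edgeR, with a median of -0.22 and summed levels of 2040 to 3419 CPM against 1491 to 4807 CPM. The most abundant, Alas2 of haem synthesis and the anion exchanger gene Slc4a1, had log2 fold changes of 0.83 and -0.22 with overlapping groups (adjusted p = 0.4 and 0.817, edgeR).

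Genes of later B cells were present beside the early set. Of 9 tested mature B and plasma cell genes, 1 passed as lower, Cd37, a tetraspanin gene also active in other leukocytes. The median was -1.79, with 7 of 9 below 0. Without control library 1 the count was 3, and it was 0 without control library 2, control library 3 or CXCL12-deficient library 2. DESeq2 called 3 lower and 1 higher. The summed level of the 12 matched genes was 1095 to 1223 CPM in controls and 1142 to 1261 CPM in CXCL12-deficient libraries. The tested genes named here all had log2 fold changes below 0. Ms4a1, which encodes CD20 and rises as B cells mature, was at 13.7, 48.7 and 78.8 CPM in controls and at 19.9, 5.32 and 7.10 CPM in CXCL12-deficient libraries, so its groups overlapped. Its log2 fold change was -2.12 (adjusted p = 0.124, edgeR), beside -1.85 for Cd79a, whose groups did not overlap. Cxcr5 had -2.44 without overlap, and Fcer2a -1.58 with overlap (adjusted p = 0.212 and 0.349, edgeR). Cr2, the complement receptor of mature B cells, was at most 0.325 CPM in any library. No immunoglobulin constant region gene of the 9 listed was matched, and the joining chain gene Igj, listed with them, did not pass the filter, so heavy and light chain RNA was not analysed here.

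Of 14 marrow stromal genes, 1 passed as lower, Cxcl12 itself, and 3 as higher, Cxcl14, Adipoq and Ebf3, and the median was 0.58. The count of higher genes was 5 without CXCL12-deficient library 2, 1 without control library 1 or CXCL12-deficient library 3, and 0 without any other library in turn. Their summed level was 10868 to 11882 CPM in controls and 10873 to 15823 CPM in CXCL12-deficient libraries. Of 15 cell cycle genes, 3 passed as lower, Top2a, Kif23 and Tpx2, with a median of -0.80 (5 without control library 1, 1 without CXCL12-deficient library 2, and 0 without any other library in turn).

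The genes whose pattern over the 6 libraries was most like that of the 9 genes were found by Pearson correlation of log2 CPM with the mean standardised profile, among genes of at least 5 CPM on average. The closest was Blnk, the adaptor that links SYK to phospholipase C in the pre-B cell receptor pathway, with r = 0.999. Pold3 and Myb followed with 0.998 each, then Dpp4 with 0.997, Ikzf1, Ahcy, Ezr and Fam107b with 0.996 each, and Pik3ap1 and Klhl6 with 0.995 each. Of the set itself, Cd79a was closest to the mean of the other 8 (r = 0.985), followed by Cd79b with 0.982 and Dntt with 0.974. Rag2 and Pax5 were the least alike the rest, with 0.832 and 0.680. The 6 points fall into the 2 groups and share libraries, so these values describe the pattern and carry no test.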

How the data were processed

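Counts were deposited by the authors as whole numbers of reads per gene, not normalized. The authors also deposited regularized log2 values, used only in an alternative, and a depth-normalized table, not used here. Per the submitters' processing notes, the tools were TopHat2 2.0.13, Bowtie2 2.2.1, HTSeq, DESeq2, FastQC, Cuffdiff and Cufflinks and the build was mm10, without their roles. The sources used here do not give the annotation, the strand setting or how shared reads were treated. The labels name the Nextera XT kit, and the design text a SMARTer amplification.

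The 4 exon entries of Cxcl12 were summed, which left 17128 genes. Which exons held the Cxcl12 reads that remained in CXCL12-deficient libraries is therefore not shown. Genes passing filterByExpr (minimum count 10, minimum total 15) were tested in edgeR 4.0.16 (R 4.3.3) with a robust quasi-likelihood fit of group only, with Benjamini-Hochberg adjustment. One read was worth 0.0357 to 0.0497 CPM. TMM factors lay between 0.955 and 1.05. The steps were tested on simulated counts. The 9 genes and the 13 lists (172 genes, 163 matched, 5 under an older symbol) were chosen with earlier results of these data known. The rule for named genes took the 9, the most changed called genes of each list (4 at most), the 2 of highest level in a list with no call, and the 10 genes most like the set. Other genes were added as markers or overlapping genes. Alternatives were DESeq2 1.42.0, limma-voom and limma 3.58.1 on the deposited log2 values, other size factors, filters and thresholds, and leaving out each library. Gene models are those of GENCODE M21 (GRCm38), and promoters those of RefSeq (GRCm38.p6). An item of the lists is not reported here.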

Additional observations from a re-analysis of the deposited data

How the results depend on the processing

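All 124 recomputed log2 fold changes of the 9 genes were below 0. The groups do not overlap, which fixes this direction, so it is no sign of stability. Of these, 97 stayed on their side of the threshold, 13 passed it newly and 14 lost it. The number of genes called lower was 2 as reported, beside 3.94% of all tested genes, and 8 with DESeq2, beside 7.25%. It ranged from 0 to 4 when 1 library was left out, while the share of all tested genes ranged from 0.521% to 3.74%. With limma on the deposited log2 values it was 1, and at an adjusted p below 0.01 it was 0. The share over all genes was not computed for these 2 settings or for the other filters, so these counts cannot be set against it. With no filter beyond 1 read the 2 called genes were Rag1 and Rag2, and with at least 5 CPM in 3 libraries Rag2 and Cd79a, when Rag1 and Pax5 were not tested. The cause of these differences was not tested. DESeq2 called 9 of 16 transcription factors lower, 15 of 15 receptor signalling genes and 7 of 15 cell cycle genes. It called 14 of 15 neutrophil genes lower, 4 of 16 other precursor genes, 2 of 10 cytokine receptor genes and 2 of 9 T and NK cell genes. Of 14 stromal genes it called 1 lower and 6 higher. With 2 CPM added in place of 0.5, the difference in Rag1 over Cd79a was 0.36 instead of -0.35. That in Dntt over Cd79a was 0.14 instead of -0.12 and that in Rag2 over Cd79a 0.42 instead of -0.02. With 0.1 CPM added they were -0.77, -0.21 and -0.22 in the same order, as the added value weighs most on low genes. Leaving out 1 library moved the Rag2 over Cd79a difference between -0.54 and 0.43, and those of Vpreb3 and Cd79b, both near 0, also turned direction in such refits. Pax5 and Rag1 rested on few reads, and depth limits what they can show. No paired analysis was possible because the labels give no replicate numbers.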
